A study of Mus musculus with 2 samples.

Results

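The linker histone H1 genes were followed here through the RNA of F123 mouse embryonic stem cells (mESCs). The members were all records of the deposited expression table whose gene name was Hist1h1a, Hist1h1b, Hist1h1c, Hist1h1d, Hist1h1e, Hist1h1t, H1f0 or H1fx. A record is 1 gene with 1 transcript biotype, and the rule found 8 protein-coding records, 1 per gene, of 37178 records in all. F123 is a male F1 hybrid line from a cross of a CAST father with an S129/Jae mother, so that each autosomal gene is present once on a CAST and once on an S129 chromosome in the same nuclei. The cells had been kept on inactivated feeder fibroblasts with leukemia inhibitory factor (LIF) and were then passaged without feeders on gelatin, with more LIF, before harvest. Total RNA was sequenced from 2 biological replicates, and the deposited table pools both, so that no value below has a spread between replicates and intervals cover counting error only. The comparison set RNA from the CAST chromosome against RNA from the S129 chromosome, read at single-nucleotide variants between the parental genomes. It bears on which H1 genes had unequal amounts of RNA from the parental chromosomes.

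Linker histones bind the DNA that enters and leaves the nucleosome and help to compact the chromatin fibre, whereas the core histones H2A, H2B, H3 and H4 form the particle itself. Mouse cells carry several H1 subtypes from separate genes. Those of the Hist1 locus (Hist1h1a to Hist1h1e) are replication-dependent, which means that they are transcribed mainly in S phase into mRNAs that end in a conserved stem-loop instead of a poly(A) tail. Hist1h1t is the testis subtype of male meiosis, H1f0 is a replacement subtype that typically accumulates in differentiated or quiescent cells, and H1fx is a divergent subtype encoded outside the histone clusters.

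The depth behind an allelic value varied widely within the family. All records of the table together held 16343693 allelic reads, with a median of 289 per record, and the H1 records held between 69 reads (Hist1h1t) and 8309 reads (Hist1h1a). The cell identity was checked on marker genes: all 10 mESC markers had at least 1 TPM (a transcript abundance scaled by length and library size), with 12.1 to 483 TPM per gene. Of 8 fibroblast markers 3 reached 1 TPM, with 7.0 TPM at most for Thy1, and their part in the H1 values was not tested. None of 6 male germ cell markers reached 1 TPM, with 0.414 TPM at most for Acrv1 and 0 for Prm1.

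The proximal promoters of the 6 H1 genes of the Hist1 locus are shown because these letters distinguish the members from one another and from H1f0 and H1fx. Each line holds the 130 bases before the RefSeq start site (RefSeq sequence, GRCm38.p6, 5′ to 3′ on the transcribed strand). Capitals mark AAACACA (the H1 box, an element known from linker histone promoters), CCAAT and TATAAA (the TATA box).
Hist1h1a (chr13:23763538-23763667, + strand): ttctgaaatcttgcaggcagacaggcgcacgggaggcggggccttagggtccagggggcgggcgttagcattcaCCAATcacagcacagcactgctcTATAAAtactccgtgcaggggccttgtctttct
Hist1h1c (chr13:23738677-23738806, + strand): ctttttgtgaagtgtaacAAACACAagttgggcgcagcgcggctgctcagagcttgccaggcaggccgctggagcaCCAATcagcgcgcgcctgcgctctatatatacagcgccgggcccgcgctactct
Hist1h1b (chr13:21780626-21780755, - strand): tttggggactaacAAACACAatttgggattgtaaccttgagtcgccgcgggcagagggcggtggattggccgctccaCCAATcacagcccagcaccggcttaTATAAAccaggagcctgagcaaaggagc
Hist1h1e (chr13:23622559-23622688, - strand): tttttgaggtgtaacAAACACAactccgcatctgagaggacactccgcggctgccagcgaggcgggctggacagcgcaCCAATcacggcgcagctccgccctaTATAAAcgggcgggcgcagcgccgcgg
Hist1h1d (chr13:23554902-23555031, + strand): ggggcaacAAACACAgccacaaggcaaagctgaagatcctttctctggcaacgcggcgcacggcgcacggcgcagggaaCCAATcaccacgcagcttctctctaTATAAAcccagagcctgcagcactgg
Hist1h1t (chr13:23695681-23695810, + strand): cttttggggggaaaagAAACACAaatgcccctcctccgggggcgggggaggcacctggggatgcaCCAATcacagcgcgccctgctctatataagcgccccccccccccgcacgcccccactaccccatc

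All 8 genes were matched in the RefSeq promoter table, and both strands of the window from 250 bases before to 50 bases after each start were searched. The letters AAACACA stood on the transcribed strand of Hist1h1b, Hist1h1c, Hist1h1d, Hist1h1e and Hist1h1t, with their first base between 122 and 112 bases before the start. They were not in the windows of Hist1h1a, H1f0 and H1fx. Of all 32851 promoters in that table, 7.18% held AAACACA on either strand and 3.57% on the transcribed strand. CCAAT was present in all 6 Hist1 members, with a copy that began between 65 and 51 bases before the start in each, and Hist1h1b held further copies of which 1 lay on the other strand. It occurred on either strand of 37.4% of all promoters and on the transcribed strand of 21.1%. TATAAA on the transcribed strand was found in Hist1h1a, Hist1h1b, Hist1h1d and Hist1h1e. Of all promoters, 8.32% held it on that strand and 13.6% on either strand. It was not found in Hist1h1c and Hist1h1t, where the same place read tatatata and tatataag. Neither CCAAT nor TATAAA was in the windows of H1f0 and H1fx. All 3 motifs on the transcribed strand occurred together in 51 promoters, or 0.155%, and the Hist1h1b, Hist1h1d and Hist1h1e promoters were among them. No 2 of the motifs overlap in the sequences shown, and a match describes letters, not bound sites. For Hist1h1d the RefSeq start lay 1770 bases downstream of the start used in the expression table, and for H1f0 and H1fx the starts lay 238 and 155 bases apart.

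The 3′ stem-loop of replication-dependent histone mRNAs was searched in the annotated transcripts (GENCODE on GRCm38), because it tells how these mRNAs end. The search used a fixed pattern of 16 bases, in which only 3 places allowed a choice, of C or T or of A or G. A match was found once in Hist1h1c, Hist1h1d and Hist1h1e. Its 16 bases were the same in all 3, which the pattern largely sets in advance. The matches are shown in capitals with 5 bases on each side.
Hist1h1c (chr13:23739507-23739532, + strand): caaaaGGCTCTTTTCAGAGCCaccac
Hist1h1d (chr13:23555782-23555807, + strand): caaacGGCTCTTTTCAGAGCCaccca
Hist1h1e (chr13:23621777-23621802, - strand): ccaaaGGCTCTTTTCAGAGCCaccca

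The stem-loop began 24, 31 and 40 bases after the stop codon of Hist1h1c, Hist1h1d and Hist1h1e. The annotated transcripts of these genes ran on for 880, 4931 and 1209 bases after the stop codon, well past it. The transcripts of Hist1h1a and Hist1h1b end 48 and 0 bases after the stop codon. No match to the pattern was found in them, nor in those of Hist1h1t, H1f0 and H1fx. A stem-loop with other bases would have been missed. The annotated Hist1h1b transcript ends at its stop codon, so no match after it could be found. In the 48 bases of Hist1h1a a match placed as in Hist1h1e would not fit. For Hist1h1a and Hist1h1b the search therefore does not show that a stem-loop is absent from the gene. All 8 transcripts consist of a single exon. The coding sequences of Hist1h1c, Hist1h1d and Hist1h1e are the most alike in the family, with 83.0% identical bases between Hist1h1c and Hist1h1d, 80.6% between Hist1h1c and Hist1h1e and 83.9% between Hist1h1d and Hist1h1e. Coding windows of 75 bases, the read length used, were compared with other genes. Of these windows, 17.5% in Hist1h1c, 18.2% in Hist1h1d and 17.9% in Hist1h1e were also found in another gene. No such window was shared by Hist1h1a, Hist1h1b or Hist1h1t. A read from a shared window could not be assigned by its own sequence. The reads were paired, and how many could be placed by their mate was not tested.

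All 8 H1 genes were expressed in F123 mESCs, and 4 of them stood in the top 1% of the 17956 records with at least 1 TPM. Hist1h1a, which encodes subtype H1.1, had the most RNA per length, with 1083 TPM (rank 12). On the lengths of the table, this level was above that of all 46 expressed core histone records of the Hist1 locus, of which Hist1h4k was highest at 916 TPM, but core histone levels were not recomputed on other lengths. Hist1h1c (H1.2) followed with 395 TPM, at rank 106. Hist1h1b (H1.5) had 304 TPM and Hist1h1e (H1.4) 295 TPM, so that these neighbours in the order lay close together, and with pooled replicates no spread could be set against the gap. The order continued with Hist1h1d (H1.3) at 107 TPM, H1f0 (H1.0) at 65.7 TPM, H1fx (H1X) at 39.2 TPM and Hist1h1t (H1t) at 21.1 TPM. The median H1 gene had 201 TPM, against 6.24 TPM for all expressed records. Hist1h1t, the testis subtype, was thus the lowest member, 51.4 times under Hist1h1a, but still at rank 3389 of the expressed records and far above the germ cell markers in level per length. In bulk RNA, a few cells with much of it and many cells with little cannot be told apart. The remaining linker histone genes were near or at 0: H1foo, the oocyte subtype, had 0.0352 TPM, and H1fnt and Hils1, both of male germ cells, were listed at 0.

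**Figure D1:**
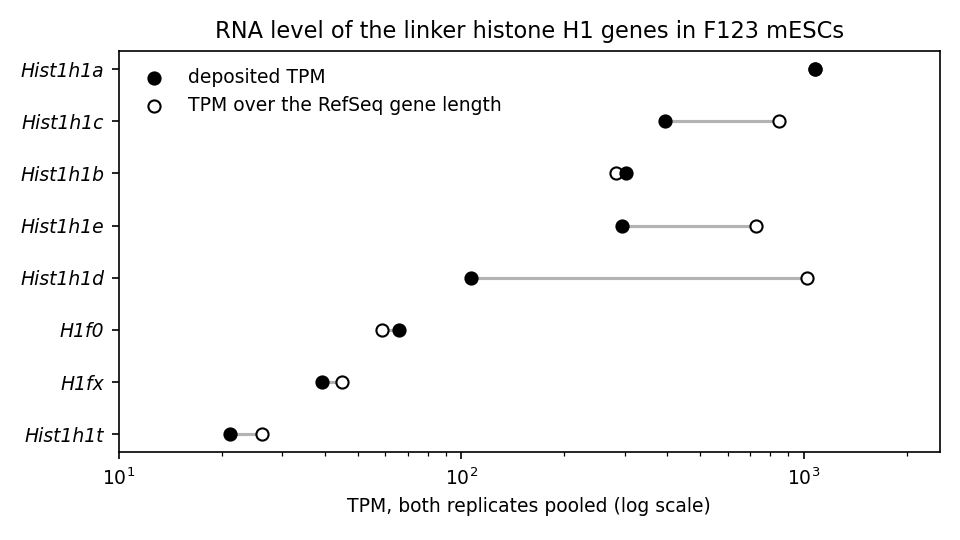
RNA level of the 8 linker histone H1 genes in TPM on a log scale, both replicates pooled. Filled circles are the deposited values and open circles the same values recomputed over the RefSeq gene length. Hist1h1a is highest on both scales, and Hist1h1d moves furthest, with 107 TPM as deposited and 1023 TPM over its RefSeq length.

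The order of the middle members depended on the length used for scaling. The table took Hist1h1d as 7425 bases long, whereas RefSeq gives 776 bases, because the transcript chosen for the table starts far upstream and runs past the stem-loop. If all of its reads fell within the RefSeq gene, its level would be 1023 TPM and it would come second, after Hist1h1a alone. The same holds for Hist1h1c (1560 bases in the table and 725 in RefSeq, 849 TPM on the shorter length) and Hist1h1e (1930 and 782 bases, 727 TPM). The lengths of Hist1h1a (741 and 745 bases) and Hist1h1b (743 and 794 bases) were nearly the same, and their levels became 1077 and 284 TPM. These rescaled levels are upper limits for the genes whose RefSeq length is shorter, since reads outside it cannot be taken off, and where the reads lay was not analysed here. The number of allelic reads per variant is not divided by a length. It averages over all variants of the transcript used in the table, so it also depends on that transcript. It was 2077 for Hist1h1a, 1086 for Hist1h1e, 860 for Hist1h1b and 588 for Hist1h1c. For H1f0 it was 87.3, for H1fx 59.5 and for Hist1h1t 34.5. Hist1h1d, second on the RefSeq lengths, held no variant and could not be placed on that measure. Among the genes with variants Hist1h1a was first and the 3 lowest genes kept their order. Hist1h1e came before Hist1h1b and Hist1h1c.

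Variants were present in 7 of the H1 genes, which could thus be read by allele, and 1 of these 7 had allele-specific expression (ASE). ASE was called where the reads of the parental chromosomes differed at least 2-fold with an adjusted p of at most 0.05 (two-sided exact binomial test against equal shares, Benjamini-Hochberg over 18632 records with allelic reads) at 1 TPM or more. Of all 15935 records tested at that level, 14.1% were called, 8.33% higher on CAST and 5.78% higher on S129, so that 1 of 7 is close to the background. Without the fold minimum 5 of the 7 H1 records passed, against 48.3% of all records, and 4 of them were higher on CAST, against 25.4%. Passing at any fold depends on depth, which was not matched. These 5 records held 698 to 8309 allelic reads, against a median of 289 over all records with allelic reads. By read counts alone, 6 of 7 H1 records had more CAST than S129 reads, against 50.4% of all tested records. The median H1 record drew 57.5% of its reads from CAST, against 50.1% over all records tested, which is a median log2 fold change (CAST over S129) of 0.44 against 0.01.

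Hist1h1c was the member with ASE. It had 4165 CAST reads and 1124 S129 reads over 9 variants, or 78.7% CAST (exact 95% interval 77.6 to 79.8). The CAST chromosome thus gave 3.71 times the reads of the S129 chromosome, a log2 fold change of 1.89 ± 0.05 (standard error from the counts; exact binomial test, Benjamini-Hochberg adjusted p below 1e-300). Its imbalance was larger than that of 94.0% of all tested records. For 6 of its 9 variants the CAST base differed from the reference genome and for 3 the S129 base did. The call held when spread beyond counting error was assumed at an intra-gene correlation of 0.01 (beta-binomial adjusted p = 1.92e-08) and was lost at 0.05 (beta-binomial adjusted p = 0.130), a setting at which 487 records of the whole table were called.

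Hist1h1a, the most abundant member, was the only H1 record with more S129 reads. It had 3124 CAST reads and 5185 S129 reads over 4 variants, or 37.6% CAST (exact 95% interval 36.6 to 38.6). The S129 chromosome thus gave 1.66 times the reads of the CAST chromosome, and the log2 fold change of -0.73 ± 0.03 stayed under the 2-fold minimum (exact binomial test, Benjamini-Hochberg adjusted p = 2.42e-112). An imbalance of this size was not rare: 74.3% of tested records had a smaller one. At a minimum of 1.5-fold Hist1h1a would count as higher on S129, and 2 of 7 H1 records would be called, against 25.8% of all records. With a correlation of 0.01 its difference from equal shares no longer passed (beta-binomial adjusted p = 0.0748).

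The other H1 genes lay closer to equal shares. Hist1h1b had 989 CAST and 730 S129 reads over 2 variants, or 57.5% CAST (exact 95% interval 55.2 to 59.9), and Hist1h1e had 637 and 449 reads at 1 variant, or 58.7% (55.7 to 61.6). Both differences passed at less than 2-fold, with log2 fold changes of 0.44 ± 0.07 and 0.50 ± 0.09 (exact binomial test, Benjamini-Hochberg adjusted p = 2.86e-09 and 7.1e-08). H1f0 had 381 CAST and 317 S129 reads over 8 variants, or 54.6% (50.8 to 58.3), with a log2 fold change of 0.27 ± 0.11 that passed narrowly (exact binomial test, adjusted p = 0.0378) and no longer did when the share over the whole table, 50.4%, replaced equal shares (adjusted p = 0.0580). For all 3 of these genes the difference was lost at a correlation of 0.01, with beta-binomial adjusted p of 0.417, 0.329 and 0.721 for Hist1h1b, Hist1h1e and H1f0. The 2 members with the fewest reads did not pass: H1fx had 65 CAST and 54 S129 reads (54.6%, 45.2 to 63.8; exact binomial test, adjusted p = 0.491) and Hist1h1t 43 and 26 (62.3%, 49.8 to 73.7; adjusted p = 0.103). The log2 fold change of Hist1h1t was 0.73 ± 0.36, below the 2-fold minimum, and its interval spans shares from equal to more than 2-fold towards CAST.

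**Figure D2:**
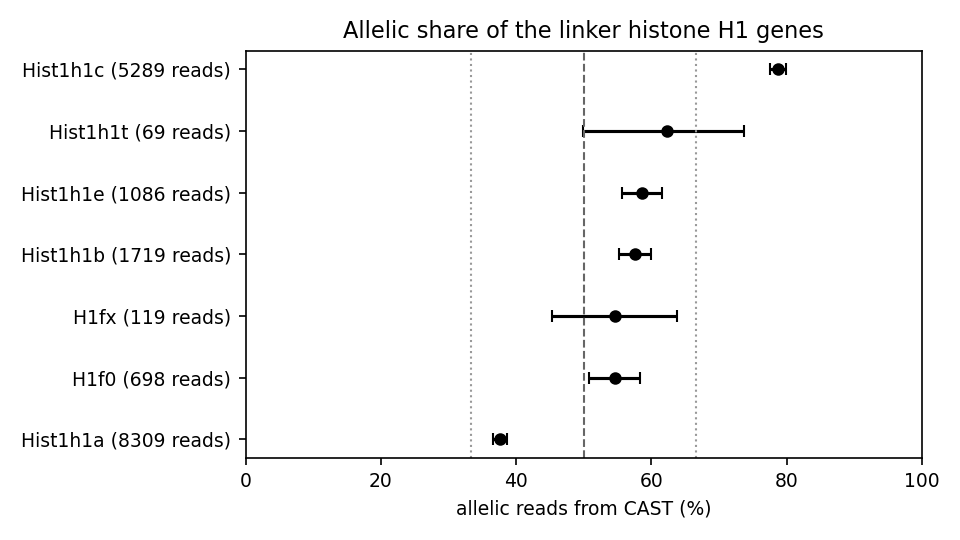
Share of allelic reads from CAST, in percent, for the 7 H1 genes with variants, with exact 95% intervals of the pooled reads. The dashed line marks equal shares and the dotted lines a 2-fold difference. Hist1h1c at 78.7% lies beyond the right dotted line, Hist1h1a at 37.6% lies left of the dashed line, and the interval of Hist1h1t with its 69 reads is the widest.

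To see which members differed from each other, the shares were compared between all 21 pairs of H1 records (two-sided Fisher's exact test, Benjamini-Hochberg over the 21 pairs). Of these pairs 11 differed, and each of them involved Hist1h1c or Hist1h1a. The widest difference was between these 2 genes, at 41.2 percentage points (95% Wald interval 39.6 to 42.7; Fisher's exact test, adjusted p below 1e-300). Against Hist1h1c the 5 remaining genes were lower by 16.4 points (Hist1h1t, interval 4.94 to 27.9) up to 24.2 points (H1f0, 20.3 to 28.0). Against Hist1h1a they were higher by 17.0 points (H1f0, 13.1 to 20.8) up to 24.7 points (Hist1h1t, 13.2 to 36.2). None of the 10 pairs among Hist1h1b, Hist1h1e, Hist1h1t, H1f0 and H1fx passed, although the intervals leave room for differences, from -2.62 to 4.87 points between Hist1h1e and Hist1h1b and from -6.82 to 22.2 points between Hist1h1t and H1fx. With effective counts at a correlation of 0.01, 8 of the 21 pairs still differed, and at 0.05 none did.

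The variants themselves and overlapping genes were examined as well. Of the 28 variants in H1 records, 5 had the non-reference base on S129 (17.9%, against 11.1% over all records with allelic reads). Hist1h1c held 3 of these 5, among its 9 variants, and Hist1h1t and H1f0 held 1 each. For 18 genes with allelic reads within 500 kb of Hist1h1c, 4.31% of 116 variants had the non-reference base on S129. Whether the variants of Hist1h1c affected its call was not tested. Records with all non-reference bases on CAST, as in Hist1h1a, Hist1h1b, Hist1h1e and H1fx, had a median CAST share of 49.8% over 10032 tested records. Hist1h1e shares 496 of its 1930 bases with the core histone gene Hist1h2be on the same strand, whose record held 133 CAST and 527 S129 reads, so the direction there was opposite to that of Hist1h1e. The antisense lncRNA Gm5577 covers 755 of the 1217 bases of H1fx. Its record held 81 CAST and 73 S129 reads, which may include reads also counted for H1fx. Of the 75-base coding windows of H1fx, 28.2% are also part of Gm5577. Gm49544 overlaps H1f0 on the other strand over 163 bases. Hist1h1e and Hist1h2be lie on the same strand, so strand cannot tell their reads apart within the overlap. For the antisense pairs the allelic counting is not stated to use strand, so their reads cannot be told apart there either.

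The 6 Hist1 members lie among core histone genes on chromosome 13, and their shares were set beside those of the neighbours. In the order of their start on GRCm38 the members are Hist1h1b at 21779883 to 21780625, then after 1773 kb Hist1h1d at 23553262 to 23560686, Hist1h1e at 23620629 to 23622558, Hist1h1t at 23695814 to 23696725, Hist1h1c at 23738808 to 23740367 and Hist1h1a at 23763666 to 23764406. H1f0 lies on chromosome 15 at 79028450 to 79030504 and H1fx on chromosome 6 at 87980421 to 87981637. Of the core histone records of the locus (names beginning with Hist1h2, Hist1h3 or Hist1h4), 30 could be tested. Of these 18 were called, 13 higher on CAST and 5 higher on S129, against 1 of 7 H1 records and 14.1% of all records. The 7 H1 records include H1f0 and H1fx from outside the locus. Those tested within it were Hist1h1a, Hist1h1b, Hist1h1c, Hist1h1e and Hist1h1t, of which Hist1h1c was called. At a correlation of 0.05 the core histone calls fell to 8, of which 7 were higher on CAST and 1 on S129. Over the 30 tested core histone records the CAST shares ran from 6.37% to 100% with a median of 64.7%. This range was wider than the 37.6% to 78.7% of the 7 H1 records, but it also spans more records. Core histone genes of a kind are near-identical copies, and how far reads were split or misplaced among them was not tested.

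The nearest core histone genes leaned to the other chromosome than Hist1h1c and Hist1h1a did. Hist1h1c, with 78.7% CAST, lies 4.61 kb from Hist1h3c, which had 157 CAST and 493 S129 reads (24.2% CAST). The difference was 54.6 percentage points (95% Wald interval 51.1 to 58.1; Fisher's exact test, Benjamini-Hochberg over 4 neighbour pairs, adjusted p = 1.06e-167). On its other side the nearest core histone record with allelic reads was Hist1h4c, 40.4 kb away, with 97.4% CAST. Hist1h1a, with 37.6% CAST, lies 1.28 kb from Hist1h3a, which had 1678 CAST and 97 S129 reads (94.5% CAST). That difference was -56.9 points (-58.4 to -55.5; Fisher's exact test, adjusted p below 1e-300), in the reverse direction to that of Hist1h1c and Hist1h3c. Both of these differences also passed with effective counts at a correlation of 0.05 (adjusted p = 0.00246 and 0.00173 by Fisher's exact test). On the other side of Hist1h1a the nearest such record was Hist1h2ba, 169 kb away, with 60.6% CAST. The 23.3 kb between Hist1h1c and Hist1h1a hold 7 core histone records with allelic reads, and their CAST shares lay on both sides of equal shares: 24.2% in Hist1h3c, 45.7% in Hist1h2bb, 73.8% in Hist1h2ab, 34.3% in Hist1h3b, 64.6% in Hist1h4b, 44.1% in Hist1h4a and 94.5% in Hist1h3a.

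**Figure D3:**
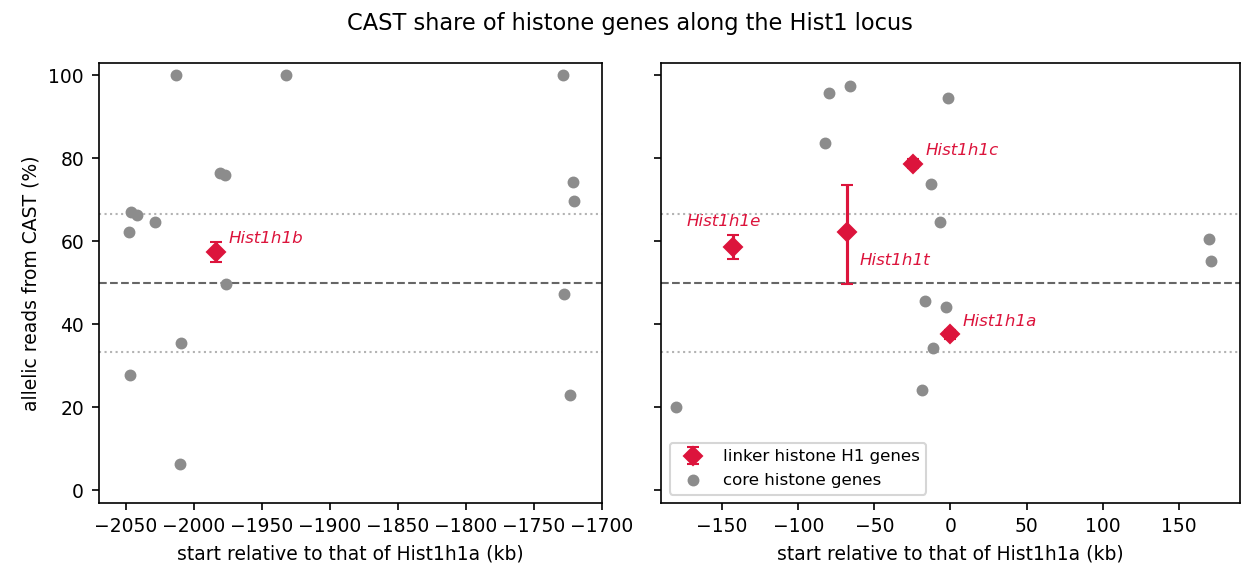
CAST share of allelic reads, in percent, against the start of each gene relative to that of Hist1h1a in kb, in 2 panels for the 2 ends of the Hist1 locus. Red diamonds are linker histone H1 genes with exact 95% intervals and grey circles are core histone records. The dashed line is equal shares and the dotted lines are 2-fold differences. Hist1h1c at 78.7% and Hist1h1a at 37.6% lie 23.3 kb apart with core histone genes of both directions between them.

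Hist1h1d was the one member that could not be read by allele, because its record held no variant. It lies in a run of 20 consecutive expressed records without variants over 269 kb, among them 13 core histone records. The nearest histone genes with variants outside the run were Hist1h2bj before it, with 8 variants, and Hist1h2be after it, with 4. The CAST and S129 parts of its 107 TPM therefore stayed unknown.

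The sum over the family can be given for the 7 genes with variants only, so the CAST share of all H1 RNA, with Hist1h1d, is unknown. Summed over these 7 genes, 9404 reads came from CAST and 7885 from S129, or 54.4% CAST (exact 95% interval 53.6 to 55.1). This sum weights genes by the number and depth of their variants and rests on 2 genes: it was 43.7% without Hist1h1c and 69.9% without Hist1h1a. When each gene's TPM was split by its allelic share, so that genes count by their level, the CAST chromosomes gave 1136 TPM and the S129 chromosomes 1066 TPM, or 51.6% CAST. The shares below are of these 7-gene sums. Hist1h1a made up 407 TPM on CAST and 676 TPM on S129, which is 35.8% of the CAST sum and 63.4% of the S129 sum. Hist1h1c made up 311 TPM on CAST and 83.9 TPM on S129, or 27.4% of the CAST sum and 7.87% of the S129 sum. The Hist1h1a level was thus 1.31 times that of Hist1h1c on CAST and 8.06 times on S129. The other 5 genes gave 418 TPM on CAST and 306 TPM on S129 together. On the RefSeq lengths the totals were 1737 TPM on CAST and 1331 TPM on S129 (56.6% CAST), with Hist1h1a at 23.3% of the CAST and 50.5% of the S129 sum and Hist1h1c at 38.5% and 13.6%. The share of Hist1h1a was higher on S129 and that of Hist1h1c higher on CAST under both lengths, and on the RefSeq lengths Hist1h1c exceeded Hist1h1a on CAST.

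**Figure D4:**
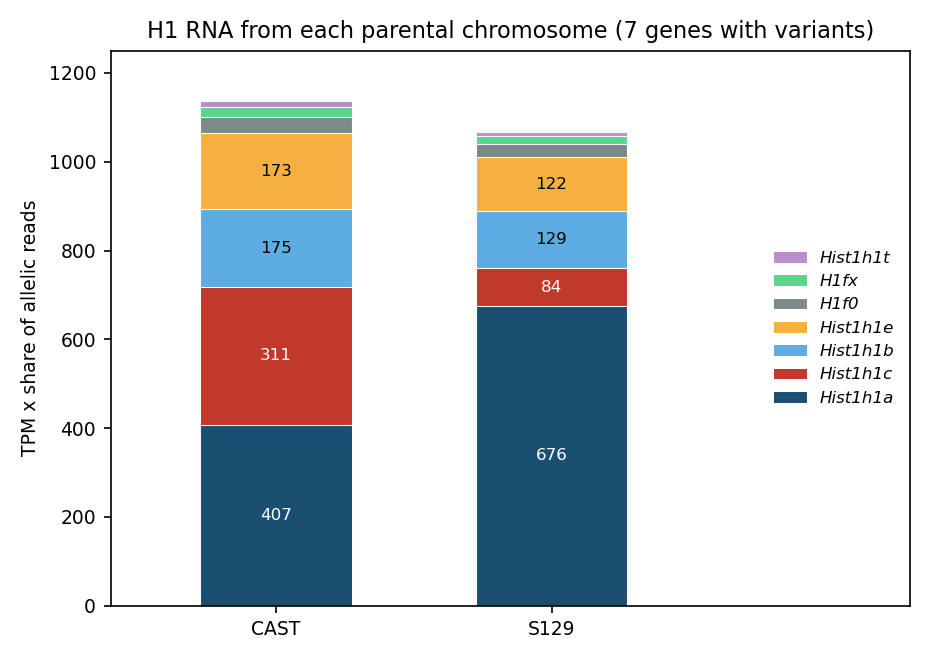
H1 RNA assigned to the CAST and S129 chromosomes, as deposited TPM times the share of allelic reads, stacked over the 7 H1 genes with variants and with both replicates pooled. The bars reach 1136 TPM for CAST and 1066 TPM for S129, with 407 TPM on CAST and 676 TPM on S129 from Hist1h1a, and 311 TPM on CAST and 84 TPM on S129 from Hist1h1c.

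Genes whose products act on linker histones were taken as a list of 23 genes, made of H1 chaperones, high mobility group proteins that compete with H1 for nucleosomes, enzymes that modify H1 and readers of the modified histone. Records were found for 22 of them, 35 in all, and 20 genes had at least 1 TPM. Of the 29 records tested, 5 were called (17.2%, against 14.1% of all records), with a median log2 fold change of -0.14 against 0.01 for all tested records. The 5 records belong to 4 genes, all of which encode high mobility group proteins. Such genes were a chosen part of the list. Among them Hmga1, Hmgn1 and Hmgn3 were tested and not called, and Hmgn5 had no record. Hmga2, an architectural protein that binds AT-rich DNA, had 3057 reads from CAST and 920 from S129 (log2 fold change 1.73 ± 0.05; exact binomial test, Benjamini-Hochberg adjusted p = 1.22e-262) at 4.82 TPM. Hmgb1, a DNA-bending protein, had 718 CAST and 1688 S129 reads (-1.23 ± 0.06; adjusted p = 1.55e-87, exact binomial test) at 164 TPM, and Hmgn2, a nucleosome-binding protein, had 243 CAST and 643 S129 reads (-1.40 ± 0.11; adjusted p = 5e-41, exact binomial test). Both Hmgn2 records were called on the same reads. Of the 2 records of Hmgb2, the lncRNA one passed, with 412 CAST and 153 S129 reads at 1 variant (1.43 ± 0.14; exact binomial test, adjusted p = 3.27e-27), and the protein-coding one stayed under 2-fold with 771 CAST and 460 S129 reads over 15 variants. With a correlation of 0.05 none of the 29 records was called. The H1 chaperone Nasp had 5560 reads from CAST and 6921 from S129 (44.5% CAST, protein-coding record), and Parp1, which modifies H1 with poly(ADP-ribose), had 6347 and 8284 reads (43.4%), both under the 2-fold minimum.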

How the data were processed

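The authors aligned total RNA reads of both replicates to mm10 with STAR (version 2.7.2c) and the F123 variants, removed duplicates with Picard, and computed the deposited TPM from HTSeq counts over exons and introns of 1 transcript per gene and biotype. The deposited allelic counts were summed by the authors over variants (GATK) and pooled over replicates. The deposited p-values, log2 fold changes and classes are the authors' comparisons and were not used. The methods require 20 reads per variant, while some records hold fewer in total.

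Exact binomial tests, Clopper-Pearson intervals, Fisher's exact tests and beta-binomial alternatives were computed with scipy (version 1.17.1) in Python (version 3.11.15), checked on simulated data. Fold changes used no added read, and standard errors follow from the counts. Named were all H1 records, other linker histones, neighbouring core histones of called members (and of Hist1h1a and between these genes, chosen after values were seen), and called partner genes (with Nasp and Parp1 added after their values were seen). The members and lists were chosen with earlier results of these data known.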

Additional observations from a re-analysis of the deposited data

How the results depend on the processing

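The deposited columns pool the replicates, so pairing, leaving out a replicate and any spread between them could not be had. No paired analysis was possible because the columns carry no replicate. Reads at several variants of a gene are not independent, and the counting intervals are widest for H1fx and Hist1h1t, with the fewest reads. With an intra-gene correlation of 0.05 the calls fell to 487 of all records (2249 as reported), 0 H1, 8 core histone (18 as reported) and 0 partner records (5 as reported), 0 H1 pairs differed, and Hist1h1c (log2 fold change 1.89) was not called. All records called were 894 with counts divided by the number of variants, 1444 with at least 100 reads, 1117 at 5 TPM, 4104 at 1.5-fold and 1205 at 3-fold. At 1.5-fold, 2 H1 records (Hist1h1a, -0.73, with Hist1h1c) and 10 partner records were called, and at 3-fold 1 partner record was. The CAST share of H1 reads was 57.5% as the median of genes, and leaving out 1 gene at a time gave 43.7% to 69.9%. The causes were not tested. The other 135 alternative values kept the direction and the call (fold, adjusted p and TPM together), stayed within 1.5 times for counts, or moved by less than the counting interval for shares. Among them are members under 2-fold whose adjusted p rose above 0.05 without a change of call: H1f0 with the share over the whole table, and Hist1h1a, Hist1h1b, Hist1h1e and H1f0 at a correlation of 0.01. RefSeq lengths were applied to the H1 genes only, and these levels were ranked against the deposited TPM of the expressed records. In that ranking 5 H1 genes were in the top 5%, as reported, while Hist1h1d moved up to order 2 among the H1 genes. The alternatives with exon TPM and RefSeq lengths were chosen after seeing the data.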
